A study of Mus musculus with 6 samples.

Results

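The 9 erythroid genes described here were the adult globin genes Hba-a1, Hba-a2, Hbb-bs and Hbb-bt, the haem synthesis gene Alas2, the red cell anion exchanger Slc4a1, the transcription factors Klf1 and Gata1, and the erythropoietin receptor Epor. They were taken by symbol, 9 of the 21720 gene symbols measured by RNA-seq in subcutaneous H22 tumours. H22 is a mouse line labelled as hepatocellular carcinoma, and the hosts were female wild-type BALB/c mice aged 6 to 8 weeks. The control group (3 libraries) received 0.5% carboxymethyl cellulose sodium, and the luteolin group (3 libraries) received 200 mg/kg luteolin, a plant flavonoid. Both were given by gavage in 0.2 mL once daily for 21 days, from the time the tumours measured about 50 mm3. H22 was the only line injected, and the host supplied the blood, vessels and immune cells of each tumour. Nothing states that the replicates came from separate mice, so p values measure the spread between these libraries, which may in part be technical.

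Adult haemoglobin is built from alpha chains (Hba-a1, Hba-a2) and beta chains (Hbb-bs, Hbb-bt), each holding a haem group whose synthesis in red cell precursors starts with the enzyme encoded by Alas2. GATA1 and KLF1 switch on the globin, haem and membrane genes in those precursors, which survive through the erythropoietin receptor. In a tumour outside blood-forming organs, globin RNA is usually carried by young circulating red cells that still hold RNA. In a bulk library, fewer cells of a type and less RNA per cell cannot be told apart. BALB/c mice carry the Hbb-d haplotype, whose adult beta genes are Hbb-b1 and Hbb-b2, while Hbb-bs and Hbb-bt are the names of the reference strain's beta genes. Hbb-b1 and Hbb-b2 were not analysed here, and how their reads were assigned is not given in the sources used here. The values of Hbb-bs and Hbb-bt are those listed under the reference names.

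The stretches just upstream of 5 of these genes are shown because the beta globins and Alas2 separated the groups in the values given further on, while Hba-a1 and Epor did not. The sequences are RefSeq's on GRCm38.p6, each covering the 150 bases before the annotated start, written 5′ to 3′ on the strand of the gene. Their positions are Hba-a1 at chr11:32283522-32283671 (plus strand), Hbb-bs at chr7:103827929-103828078 (minus strand), Hbb-bt at chr7:103813924-103814073 (minus strand), Alas2 at chrX:150547267-150547416 (plus strand), and Epor at chr9:21963577-21963726 (minus strand). Capitals mark the GATA motif (NGATAN, with A or T as its first base and A or G as its last), the CACCC-type motif CCNCNCCC, the CCAAT box and the TATA motif TATAAA, searched on both strands.
Hba-a1: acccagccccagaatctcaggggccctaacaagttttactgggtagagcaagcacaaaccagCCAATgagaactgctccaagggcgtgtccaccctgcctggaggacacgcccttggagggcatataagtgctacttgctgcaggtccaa
Hbb-bs: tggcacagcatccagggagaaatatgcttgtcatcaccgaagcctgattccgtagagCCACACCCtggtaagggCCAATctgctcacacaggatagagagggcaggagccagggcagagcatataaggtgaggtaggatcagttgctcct
Hbb-bt: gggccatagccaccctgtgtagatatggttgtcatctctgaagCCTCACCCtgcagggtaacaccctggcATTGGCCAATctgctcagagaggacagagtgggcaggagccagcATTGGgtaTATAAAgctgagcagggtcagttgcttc
Alas2: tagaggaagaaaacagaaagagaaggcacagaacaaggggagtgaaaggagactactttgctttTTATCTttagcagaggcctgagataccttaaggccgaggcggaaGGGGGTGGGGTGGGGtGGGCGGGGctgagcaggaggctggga
Epor: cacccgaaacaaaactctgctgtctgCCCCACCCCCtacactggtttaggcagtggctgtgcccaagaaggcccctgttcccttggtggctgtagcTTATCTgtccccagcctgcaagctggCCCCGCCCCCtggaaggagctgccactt
Hbb-bs carried a CCNCNCCC match starting 93 bases before the start and a CCAAT match 76 bases before it. Hbb-bt carried a CCNCNCCC match at 107 bases, a TATAAA match at 28 bases, and CCAAT matches at 80, 75 and 36 bases. Of these CCAAT matches, those at 80 and 36 bases lay on the opposite strand. The GATA match of Hbb-bs, at 210 bases, and that of Hba-a1, at 183 bases, lie upstream of the stretches shown. In Alas2 the GATA match lay at 86 bases, on the opposite strand, and in Epor at 54 bases, also on the opposite strand. The CCNCNCCC matches of Alas2 and Epor, 4 in each, overlap in part, and those of Alas2 lay on the opposite strand. Over the whole 300 bases held for each promoter, 6 of the 8 members with a sequence had a GATA match, against 29.8% of 32851 mouse promoters of the same length. CCNCNCCC was found in 5 of 8 against 49.5%, CCAAT in 5 of 8 against 37.4%, and TATAAA in 2 of 8 against 13.6%. Slc4a1 had no entry. A match to these letters is a description and not a binding site. The promoters of Hba-a1 and Hba-a2 were identical over 147 aligned bases, and those of Hbb-bs and Hbb-bt over 98 of 125 aligned bases.

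The counts are the authors' estimated counts per gene, with totals of 61081637 to 80442954 per library, and levels are given as CPM (counts scaled to a common, TMM-normalized total). Between the groups, 14963 genes that passed a filter on low counts were compared with edgeR's quasi-likelihood test, including 7 of the 9 members. Slc4a1 and Gata1 did not pass. The labelled cell type was checked with 2 marker lists. The fetal liver and hepatoma list summed to 415 to 450 CPM in the controls and 307 to 347 CPM in the luteolin group, without overlap. Epcam had 119 to 135 CPM in the controls and 46.6 to 102 CPM in the luteolin group (log2 fold change -0.86, edgeR adjusted p = 0.169), Afp also lay below every control library (-0.58, edgeR adjusted p = 0.187), and Krt18 ranged from 193 to 266 CPM. Of the 6 tested genes of this list, 2 lay below every control library (background 12.8%) and 1 lay above (background 15.9%). At a fold change over 2 with an edgeR unadjusted p under 0.05, 1 was higher (background 11.3%) and 0 were lower (background 1.52%). The higher gene was none of those just named, so the list was mixed although its sum was lower. Markers of mature hepatocytes were low and uneven, and summed to 3.56 to 163 CPM, with Alb from 0.868 to 133 CPM. Luteolin replicate 2 stood apart by a keratinocyte marker sum of 9076 CPM, luteolin replicate 1 had 391 CPM, and the other 4 libraries had 14.4 to 21.2 CPM.

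The beta globins and Alas2 lay lower in all 3 luteolin libraries than in any control library. The 4 adult globin rows together held 0.000764% to 0.00334% of all counts. In edgeR, no member passed an adjusted p of 0.05 in either direction (0 of 7 tested). Of all tested genes, 0.187% were called lower and 1.34% higher. At the threshold of the study (fold change over 2 with an unadjusted p under 0.05), edgeR called 1 member lower (Hbb-bs, background 1.52%). It called 0 members higher (background 11.3%). Hbb-bs was also the only 1 of 7 with an unadjusted p under 0.05 in edgeR (background 6.44% lower). With DESeq2, which the study used, 2 members were lower at the study's threshold, Hbb-bs and Alas2, among 282 of 17478 genes. DESeq2 called 0 members higher, where 2004 of all genes were called. Of the 7, 3 lay below every control library (background 12.8%) and 0 above every control library (background 15.9%). The median log2 fold change of the 7 was -0.84, beside -0.0073 over all tested genes. The 7 include an alpha and a beta globin pair whose copies cannot be fully separated, so they are not 7 independent genes. The 9 genes were also chosen with earlier results of these data known, and the set was not tested. The plot of the 9 genes by library shows their CPM.

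**Figure D1:**
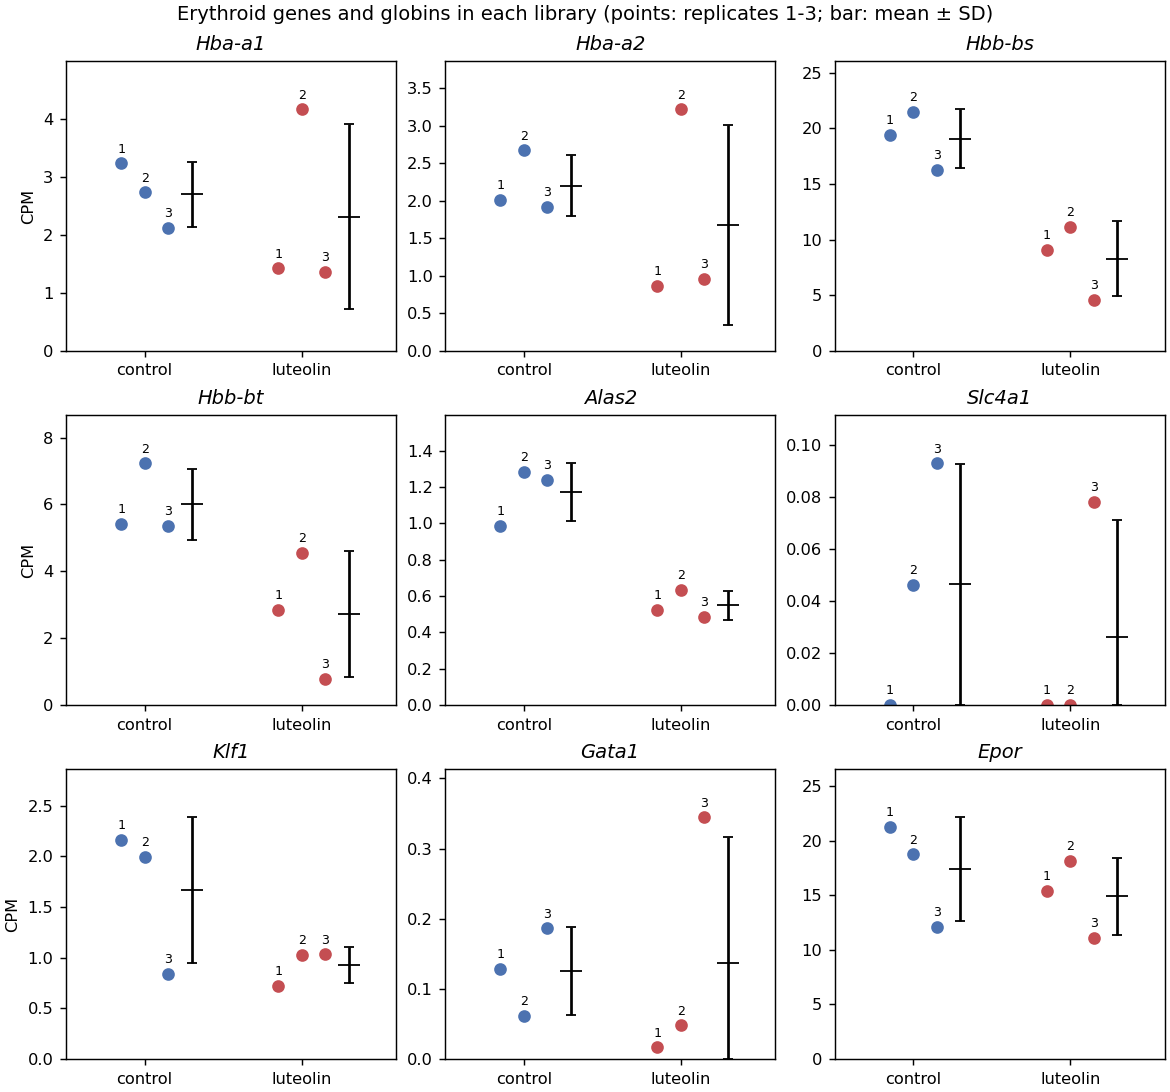
CPM of each gene (y axis, starting at 0) in the 3 control and 3 luteolin libraries, points numbered by replicate, with the mean and SD as a bar beside each group. Hbb-bs, Hbb-bt and Alas2 have all luteolin points under all control points, while luteolin replicate 2 is the highest point of Hba-a1 (4.16 CPM) and Hba-a2 (3.22 CPM).

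Hbb-bs, an adult beta globin of the reference strain, was the most abundant member per kilobase of transcript. Its counts were 1356, 1392 and 1049 in control replicates 1 to 3, or 19.4, 21.5 and 16.3 CPM. In luteolin replicates 1 to 3 the counts were 555, 932 and 291, or 9.06, 11.2 and 4.55 CPM. Every luteolin library thus lay below every control library, and the group means were 19.1 ± 2.63 and 8.26 ± 3.37 CPM (SD, n = 3 each), a ratio of 0.433. The log2 fold change was -1.21 (standard error 0.36, 95% interval -2.05 to -0.36), with an unadjusted p of 0.0118 and a Benjamini-Hochberg adjusted p of 0.137 by edgeR's quasi-likelihood method. Hbb-bs therefore met the study's threshold and missed the adjusted one. DESeq2 gave it an adjusted p of 0.0131, limma's voom with sample quality weights 0.00853, and offsets for GC content and length in edgeR 0.0406. These offsets were chosen after the data had been seen. In all other settings, each fitted with edgeR, Hbb-bs missed the adjusted threshold. The edgeR adjusted p there ran from 0.0893 (without luteolin replicate 2) to 0.377 (without control replicate 2).

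Hbb-bt, the other adult beta globin of the reference strain, had 5.41, 7.23 and 5.37 CPM in control replicates 1 to 3. In luteolin replicates 1 to 3 it had 2.84, 4.56 and 0.782 CPM. The groups did not overlap, but luteolin replicate 3, with 50 counts, was far under the other luteolin libraries, which had 174 and 381. The log2 fold change was -1.14 (standard error 0.61, 95% interval -2.59 to 0.32), and edgeR's adjusted p was 0.357. Without luteolin replicate 2 it was -1.71, and without luteolin replicate 3 it was -0.76.

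The alpha globins did not separate the groups. Hba-a1 had 3.23, 2.73 and 2.12 CPM in control replicates 1 to 3 and 1.42, 4.16 and 1.36 CPM in luteolin replicates 1 to 3. Hba-a2, its near-identical copy, had 2.02, 2.67 and 1.92 CPM in the controls and 0.865, 3.22 and 0.954 CPM in the luteolin libraries. For both genes luteolin replicate 2 was the highest of the 6 libraries and luteolin replicates 1 and 3 were the lowest. The log2 fold changes were -0.22 for Hba-a1 (standard error 0.55, 95% interval -1.52 to 1.09) and -0.39 for Hba-a2 (standard error 0.61, 95% interval -1.83 to 1.06), and the adjusted p values from edgeR were 0.874 and 0.782. Leaving out luteolin replicate 2 changed these to -0.94 and -1.26, and Hba-a2 then met the study's threshold (unadjusted p = 0.0226, edgeR adjusted p = 0.205). Without luteolin replicate 1 the value of Hba-a1 was 0.034.

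Counting cannot fully separate the copies within each pair. The reference transcripts of Hba-a1 and Hba-a2 were identical at 537 of 538 aligned bases, and 74.5% of the 100-base windows of Hba-a2 also occur in Hba-a1. Those of Hbb-bs and Hbb-bt were identical at 575 of 616 aligned bases, with 54.8% of the windows of Hbb-bt found in Hbb-bs. An alpha and a beta transcript, Hba-a1 and Hbb-bs, shared 0% of windows. Sums over each pair do not depend on how reads were split within it. The beta sum was 24.8, 28.7 and 21.6 CPM in control replicates 1 to 3 and 11.9, 15.7 and 5.34 CPM in luteolin replicates 1 to 3, without overlap. The alpha sum was 5.25, 5.41 and 4.05 CPM in the controls and 2.29, 7.38 and 2.32 CPM in the luteolin libraries, with luteolin replicate 2 above every control.

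The balance of alpha to beta counts was even across 4 libraries and different in the other 2. The alpha rows held 17.5%, 15.8% and 15.8% of the adult globin counts in control replicates 1 to 3 and 16.1%, 32.0% and 30.3% in luteolin replicates 1 to 3. The 95% Wilson intervals were 29.9% to 34.1% in luteolin replicate 2 and 26.4% to 34.5% in luteolin replicate 3. With 4 units counted as 1 read pair they widened to 27.9% to 36.2% and 22.9% to 39.0%, against upper bounds of at most 21.6% in the other 4 libraries on the same scale. These intervals cover counting error only, the comparison was chosen after the values were seen, and the difference in change between alpha and beta genes was not tested. Hbb-bt made up 21.8% to 25.2% of the beta counts in the controls, and 23.9%, 29.0% and 14.7% in luteolin replicates 1 to 3.

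**Figure D2:**
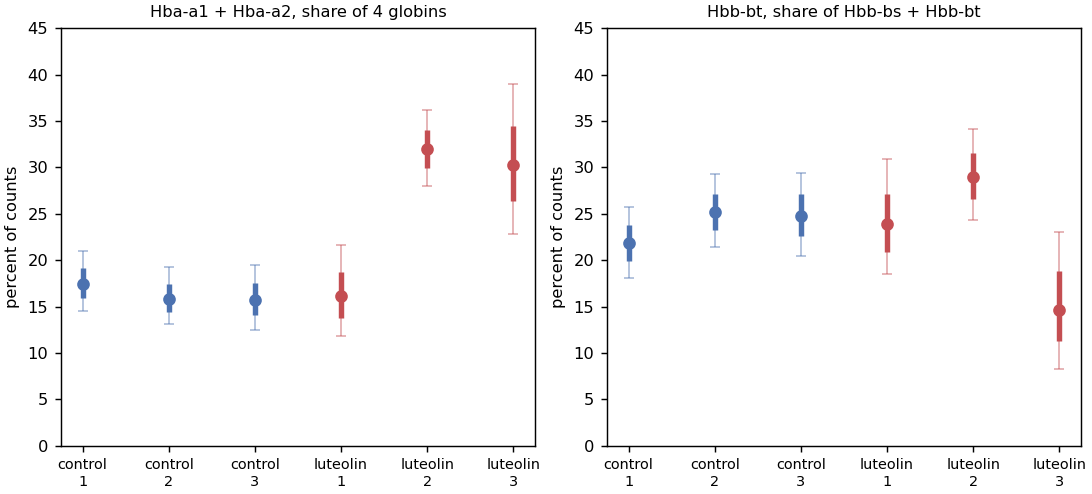
Share of alpha counts among the 4 adult globin rows (left) and share of Hbb-bt among both beta rows (right), in percent, for each library. Thick lines are 95% Wilson intervals on the counts and thin lines the same with 4 units as 1 read pair. Luteolin replicates 2 and 3, at 32.0% and 30.3% alpha, stand above the other 4 libraries at 15.8% to 17.5%.

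Alas2, which encodes the erythroid form of the first enzyme of haem synthesis, had 69, 83 and 80 counts in control replicates 1 to 3 and 32, 53 and 31 in luteolin replicates 1 to 3. On the CPM scale these were 0.987, 1.28 and 1.24 against 0.522, 0.634 and 0.485, and the groups did not overlap. The group means were 1.17 ± 0.159 and 0.547 ± 0.0777 CPM (SD, n = 3 each). The log2 fold change was -1.09 (standard error 0.47, 95% interval -2.20 to 0.017), and edgeR gave an unadjusted p of 0.0527 and an adjusted p of 0.25. It lay between -1.24 and -1.04 in all 16 other settings. Some of these placed it at the study's threshold, among them DESeq2 with an unadjusted p of 0.0321.

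Both transcription factors were low, and Gata1 was near the limit of detection. Klf1, the activator of adult beta globin, had 2.16, 1.99 and 0.837 CPM in control replicates 1 to 3 and 0.718, 1.03 and 1.03 CPM in luteolin replicates 1 to 3. Control replicate 3 fell within the luteolin range, and the log2 fold change of -0.84 (standard error 0.53) had an adjusted p of 0.428 in edgeR. Gata1, the central erythroid factor, had 9, 4 and 12 counts in the controls and 1, 4 and 22 in luteolin replicates 1 to 3, so both the lowest and the highest library were luteolin libraries.

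Slc4a1, the band 3 anion exchanger of the red cell membrane, had 0, 3 and 6 counts in control replicates 1 to 3 and 0, 0 and 5 in luteolin replicates 1 to 3. A count of 0 allows up to 3 counts, which is 0.0359 to 0.049 CPM in these libraries, or up to 12 counts where 1 read pair counts as 4 units. Gata1 and Slc4a1 were not tested.

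Epor, the receptor through which erythropoietin keeps red cell precursors alive, was the second most abundant member per kilobase, and its groups overlapped. It had 21.3, 18.7 and 12.1 CPM in control replicates 1 to 3 and 15.4, 18.2 and 11.1 CPM in luteolin replicates 1 to 3. The log2 fold change was -0.22 (standard error 0.30, 95% interval -0.93 to 0.49), and edgeR's adjusted p was 0.743. The interval does not reach a change of 2-fold in either direction.

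Leaving out single libraries changed how many members separated the groups. Without luteolin replicate 2, which had the highest keratinocyte sum, 5 of the 7 tested members lay below every control library (background 18.9%), Hba-a1 and Hba-a2 being added to Hbb-bs, Hbb-bt and Alas2. In that setting 3 members were lower at the study's threshold, Hbb-bs, Hbb-bt and Hba-a2 (background 1.84%). Without control replicate 3 the count below every control library was also 5 (background 18.1%), with Klf1 and Epor added. Without luteolin replicate 3, 0 members met the study's threshold, as the log2 fold change of Hbb-bs became -0.97. At an adjusted p of 0.05, 1 member was lower in DESeq2 (background 2.37%), 4 in voom with sample quality weights (background 8.76%) and 1 with the GC and length offsets (background 2.07%). The 4 members in voom were Hba-a2, Hbb-bs, Hbb-bt and Alas2.

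**Figure D3:**
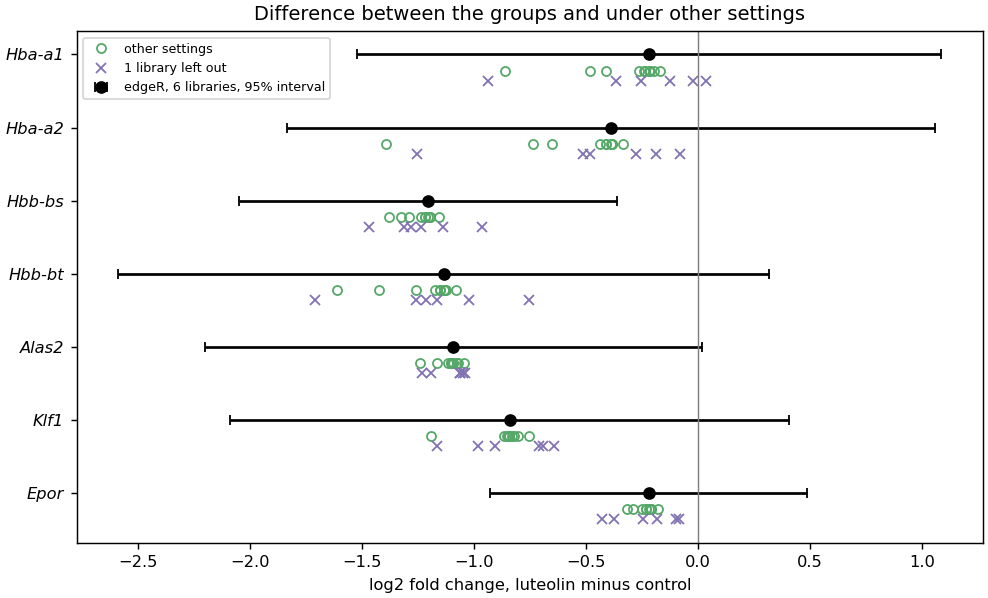
Log2 fold change of the 7 tested members, luteolin minus control (x axis). Black points with bars are edgeR values with 95% intervals, green circles the 10 other settings and purple crosses the 6 fits with 1 library left out. The interval of Hbb-bs, from -2.05 to -0.36, is the only one that stays under 0, and 1 cross of Hba-a1 lies above 0 at 0.034.

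Per kilobase of transcript, which allows levels of different genes to be compared, Hbb-bs was highest in the controls with 30.3 ± 4.19 CPM per kb (SD, n = 3). Epor (9.87 ± 2.70) and Hbb-bt (8.54 ± 1.51) followed and overlapped each other, then Hba-a2 (3.98 ± 0.736) and Hba-a1 (3.86 ± 0.795), which also overlapped. Klf1 (1.09 ± 0.471) and Alas2 (0.596 ± 0.0812) came next with overlapping ranges, and Gata1 and Slc4a1 were under 0.1 CPM per kb. In the luteolin group the order of the first 3 was the same, but the ranges of Hbb-bs and Epor overlapped, at 7.25 to 17.8 CPM per kb for Hbb-bs and 6.32 to 10.3 for Epor. The ranges of Hbb-bt, Hba-a1 and Hba-a2 overlapped there too. The level of Epor per kilobase thus exceeded that of each alpha globin row taken alone in every library of its own group. Reads of the 2 alpha copies cannot be fully separated, and the copies together were not compared with Epor per kilobase.

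Over the 6 libraries, which include the difference between the groups, Hbb-bs followed Hbb-bt most closely (Pearson r of log2 CPM 0.96) and then Alas2 (0.90). Hba-a1 and Hba-a2 had an r of 0.94 with each other and of 0.64 to 0.75 with the beta globins. Klf1 had 0.42 to 0.58 with the 4 globins. Among 13269 other tested genes with a mean of at least 1 CPM, the 5 most like the summed adult globins were Lama3, a laminin chain (r = 0.99), Sdcbp2, Elp6, Vkorc1l1 and Glb1, a lysosomal galactosidase (r = 0.98 for each of these 4). None of these 5 is in the erythroid lists used here. With 6 libraries and 13269 genes, correlations of this size describe the ordering of the libraries and no more.

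The wider erythroid programme was examined with 8 lists that left out the 9 members and held 115 genes, of which 110 were in the table and 90 were tested. At an adjusted p of 0.05, 1 gene of the 90 rose (Hmox1) and 0 fell, and at the study's threshold 16 were higher (background 11.3%) and 1 lower (Kitl, the KIT ligand, at -1.08, background 1.52%). The lists were counted with edgeR only. Across the whole table, 0 genes remained at an adjusted p under 0.05 when control replicate 1, 2 or 3 or luteolin replicate 1 was dropped from the edgeR comparison, so no call at an adjusted p of 0.05 from its 6 libraries held without these. Of the other globin genes, the embryonic and theta-type genes Hba-x, Hbb-y, Hbb-bh1, Hbb-bh2, Hbq1a and Hbq1b had 0 counts in all 6 libraries. Mb, the muscle oxygen store, had 4.94 ± 2.09 CPM in the controls and 12.9 ± 7.80 in the luteolin group, and Cygb, a globin of fibroblast-like cells, 4.65 ± 1.36 and 8.39 ± 2.37 (SD, n = 3 each). Both had positive log2 fold changes (1.38 and 0.85) and the adjusted p values from edgeR were 0.209 and 0.244. Ngb had a mean of 0.16 CPM in the controls and 0.351 CPM in the luteolin group.

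Of the 15 tested genes of haem synthesis and transport, 0 passed the adjusted threshold, and Fech and Uros were among those that lay below every control library. Fech, which inserts iron into the haem ring, had 81.9, 87.7 and 93.9 CPM in control replicates 1 to 3 and 59.8, 46.3 and 55.4 CPM in luteolin replicates 1 to 3. The groups did not overlap, and its log2 fold change of -0.71 had an edgeR adjusted p of 0.0815. Slc25a37, the mitochondrial iron importer, and Abcb6, a porphyrin transporter, had the highest CPM of the list and log2 fold changes of -0.0091 and 0.089. The list median, that of Slc25a37, was -0.0091.

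Genes of iron uptake and storage were mixed, with 2 of 11 higher at the study's threshold (Fth1 and the iron exporter Slc40a1, background 11.3%) and 0 at the adjusted one. Fth1 and Ftl1, the chains of the iron store ferritin, had log2 fold changes of 1.04 and 0.77 (edgeR adjusted p = 0.15 and 0.131). Of 15 tested genes for the red cell membrane and skeleton, 4 lay above every control library (Slc2a1, Slc14a1, Xk and Gypc, background 15.9%). Another 3 lay below (Ank1, Dmtn and Icam4, background 12.8%), and 0 passed the adjusted threshold. Gypc, a glycophorin, had a log2 fold change of 0.72 (edgeR adjusted p = 0.237). Dmtn, a skeleton protein, had 7.25 ± 0.245 CPM in the controls and 3.83 ± 0.480 in the luteolin group (SD, n = 3 each), and its log2 fold change was -0.92 (edgeR adjusted p = 0.146). Slc2a1, the glucose transporter that many cell types share with red cells, had 0.74 (edgeR adjusted p = 0.0973), and Cd47, also widely expressed, -0.089. Rhag and Kel, which are close to restricted to red cells, had 0 counts in all libraries.

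Late erythroid proteins gave 8 tested genes with 0 adjusted calls and a median of -0.057. At the study's threshold 2 were higher (Car2 and Blvrb, background 11.3%) and 0 lower (background 1.52%). In this list 3 genes lay above every control library (background 15.9%) and 0 below (background 12.8%). Car2, a carbonic anhydrase that other cells also make, had 1.02, 0.71 and 0.372 CPM in the controls and 4.25, 5.58 and 4.32 CPM in luteolin replicates 1 to 3. Its log2 fold change was 2.75 (edgeR adjusted p = 0.0521), opposite in sign to the beta globins. Blvrb, a biliverdin reductase, had 1.09, while the abundant Prdx2, an antioxidant enzyme, had -0.37 and Bnip3l, a mitophagy receptor, -0.25. None of these 3 passed the adjusted threshold.

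Among the 15 tested transcription factor genes 3 were higher at the study's threshold (Bcl11a, Myb and Cbfa2t3, background 11.3%) and 0 at the adjusted one. Bcl11a, a repressor of embryonic globin that B cells also express, had 0.302 ± 0.163 CPM in the controls and 1.24, 8.32 and 0.563 CPM in luteolin replicates 1 to 3. Myb, a factor of blood progenitors, had 0.279 ± 0.148 CPM in the controls and 1.31 ± 1.05 in the luteolin group (SD, n = 3 each). The abundant partners Ldb1 and Klf3 stood at -0.13 and -0.052 on the log2 scale. In the erythropoietin signalling list, Epo itself had 0 counts in all libraries. Stat5b, a transducer of many cytokine receptors, had 6.65, 7.63 and 8.92 CPM in the controls and 22.6, 48.0 and 19.5 CPM in luteolin replicates 1 to 3, a log2 fold change of 1.96 (edgeR adjusted p = 0.0635). Lyn, a kinase shared with myeloid cells, had 0.99 (edgeR adjusted p = 0.0789), and the adaptors Gab1 and Grb2 had -0.15 and 0.88.

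Hmox1, the haem-degrading enzyme that haem itself induces in macrophages, rose. It had 49.1, 55.9 and 42.3 CPM in control replicates 1 to 3 and 136, 139 and 98.9 CPM in luteolin replicates 1 to 3. The groups were well apart, with a log2 fold change of 1.35 (standard error 0.20, edgeR adjusted p = 0.0366). Slc7a11, a cystine importer, had 2.17 (edgeR adjusted p = 0.0831). Hp, the plasma binder of free haemoglobin, had 4.04, 8.71 and 58.1 CPM in the controls and 104, 362 and 37.5 CPM in luteolin replicates 1 to 3, so the groups overlapped, and Lrp1, a receptor for haem bound to haemopexin, had 0.28. The median of the 11 tested clearance genes was 1.04.

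**Figure D4:**
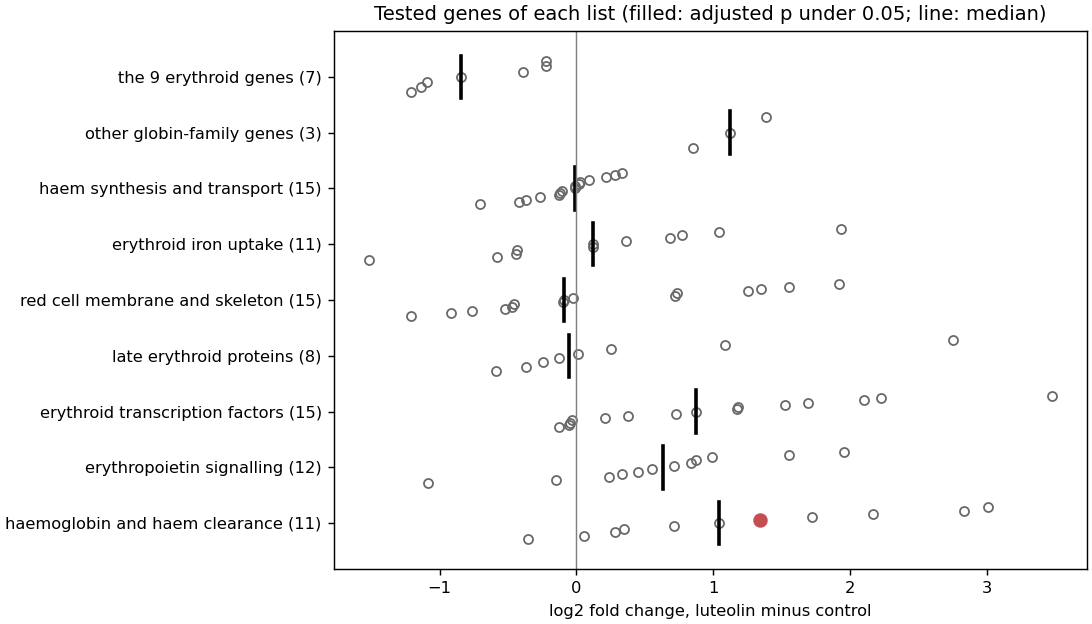
Log2 fold change, luteolin minus control (x axis), of each tested gene in the 9 erythroid genes and 8 wider lists, with the number of tested genes in brackets, the median as a line and filled points for an adjusted p under 0.05. Only Hmox1, at 1.35, is filled, and the medians run from -0.84 for the 9 genes to 1.12 for the other globin-family genes.

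Markers of other cells that blood and the tumour bed could bring were summed in each library. The endothelial list, 10 of 10 genes detected, summed to 133 to 149 CPM in the controls and 150 to 399 CPM in the luteolin group, with Vwf at 1.65 and Kdr at 1.27 on the log2 scale (edgeR adjusted p = 0.0965 and 0.114). Pecam1 and Cdh5 had 1.05 and 0.67. The sums of control replicate 3 and luteolin replicate 3 nearly met, and in luteolin replicate 3 Cdh5, Tek, Tie1 and Egfl7 lay below every control library. The platelet and megakaryocyte list (12 genes, 2 at 0 in all libraries) summed to 23.4 to 28.6 against 39.7 to 65.6 CPM. Within it Itgb3, also made by macrophages, rose by 1.35 (edgeR adjusted p = 0.0437), and Pf4 had 1.85 (edgeR adjusted p = 0.104). Itga2b and Gp1ba had -0.031 and -0.086. Ppbp and Treml1, with low control means of 0.244 and 0.174 CPM, had 0.93 and 0.97 (edgeR adjusted p = 0.52 and 0.522). Of the 6 tested genes of this list, 4 had positive and 2 had negative log2 fold changes, with a median of 0.95.

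Mast cells, which share Gata1 and Kit with the erythroid lineage, had a list sum of 8.87 to 21.0 CPM in the controls and 52.6 to 145 CPM in the luteolin group. Hdc and Tpsab1, their histidine decarboxylase and tryptase, rose by 3.96 and 2.93 on the log2 scale (edgeR adjusted p = 0.0331 and 0.0429). Gata1 overlapped between the groups beside this. The eosinophil and basophil list summed to 14.8 to 17.9 CPM in the controls and 6.33 to 15.3 CPM in the luteolin group, led by Ear2 (-1.75) and Mcpt8 (-0.092), with Prg2 at 2.15, and 0 adjusted calls.

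Neutrophil, T cell and macrophage lists summed to 46.6 to 52.4, 14.4 to 16.4 and 1931 to 2264 CPM in the controls and to 141 to 230, 48.7 to 95.9 and 2441 to 3696 CPM in the luteolin group. S100a8 and S100a9 rose by 4.44 and 4.70, Cd8a by 2.51 and Cd68 by 1.16 (edgeR adjusted p = 0.0331 for each). Csf3r, Mmp9, Lck, Cd4, Cd14, Lyz2 and C1qa had values from 0.23 to 2.25. The bone marrow and spleen stroma list was led by Cxcl12, at 8.67 to 14.8 CPM in the controls and 27.8 to 97.4 CPM in the luteolin group, and Lepr, at a log2 fold change of 0.62. Skeletal muscle markers, led by Acta1 and Myh4, summed to 518 to 1180 against 271 to 1205 CPM, and adipocyte markers, led by Fabp4 and Car3, to 18.0 to 117 against 26.9 to 462 CPM. The part of these cells in the lower beta globin and Alas2 values, and that of the lower fetal liver and hepatoma sums beside them, was not tested.

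**Figure D5:**
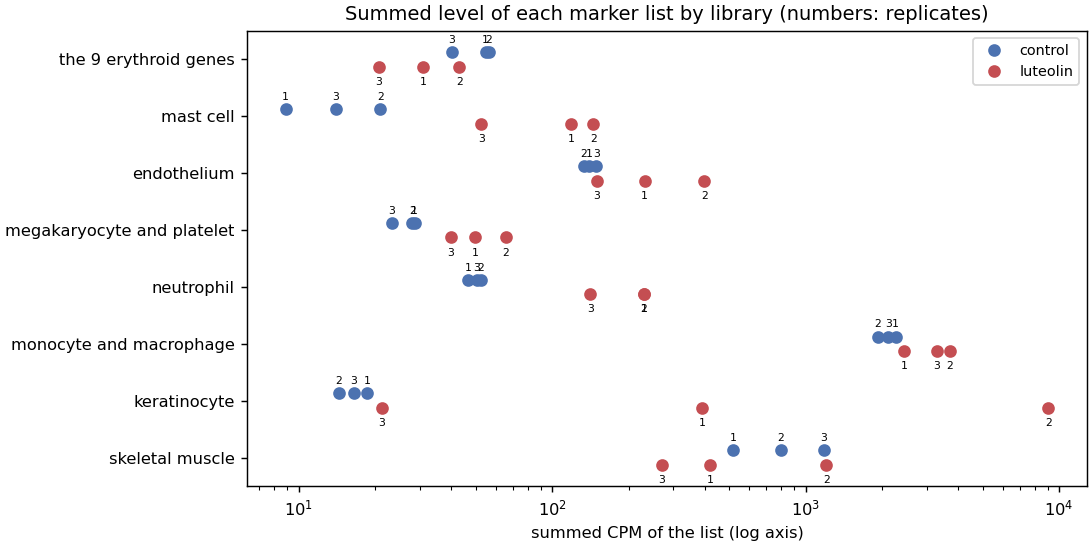
Summed CPM of the 9 erythroid genes and of 7 marker lists (x axis, log scale) in each library, numbered by replicate, controls in blue and luteolin in red. The erythroid sum is 40.1 to 56.3 CPM in the controls and 20.7 to 43.0 in the luteolin group. The mast cell, platelet, neutrophil and macrophage sums of all 3 luteolin libraries lie above those of all 3 controls. So do the keratinocyte and endothelium sums, by little in the lowest luteolin library (21.2 against 18.6 and 150 against 149 CPM). The skeletal muscle sums overlap.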

How the data were processed

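The authors deposited a table of estimated counts per gene symbol and library, given as whole numbers without scaling across libraries. The submitters' processing notes name bcl2fastq 2.0, HISAT2, StringTie and DESeq2, and the builds rn6 and mm39, without saying which made this table. Of the deposited values from 1 to 40, 44.8% were multiples of 4, so 1 unit need not be 1 read pair. The replicates of a group correlated at 0.892 to 0.969 (Pearson r of log2 CPM). Counts were compared in R 4.3.3 with edgeR 4.0.16 (TMM, filterByExpr, quasi-likelihood test, no covariates, Benjamini-Hochberg adjustment over 14963 genes). CPM are counts scaled to the TMM-normalized total, and log2 CPM for correlations have a prior count of 2. Lengths and transcripts came from GENCODE M21 and promoters from RefSeq on GRCm38.p6, which is not a build named for the counts, so no gene positions were joined to the table.

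Alternatives were DESeq2 1.42.0, voom of limma 3.58.1 with sample quality weights, RLE and upper-quartile scaling, scaling without the globin rows, no filter, at least 10 counts in every library, values divided by 4, a replicate block and each library left out. Chosen after the data had been seen were offsets for GC content and length (splines with 4 and 3 degrees of freedom) and the overlap counts with each library left out. The scripts were tested on simulated data. The 9 genes and the gene lists were chosen with earlier results of these data known. Besides the 9 genes, those named were the 2 genes of each list with the smallest p and the 2 with the highest mean, the globin-family genes with a count, list genes at 0 in all libraries and the 5 genes most like the globins. Kitl, Uros, Slc40a1, Ank1, Icam4, Slc14a1, Xk, Gypc, Cbfa2t3, Afp, Tek, Tie1, Egfl7, Itga2b, Gp1ba, Ppbp and Treml1 were named after their values had been seen. Some genes that the rule selects are not reported here. Genes of the keratinocyte list are given by their sum. Hbb-b1, Hbb-b2, Hbb-bh0 and Ahsp were not analysed here.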

Additional observations from a re-analysis of the deposited data

How the results depend on the processing

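Over the 16 alternatives of each tested member, 105 values of the log2 fold change kept their direction and their side of an adjusted p of 0.05, 6 came to pass it, and 1 turned, Hba-a1 at 0.034 without luteolin replicate 1 (its range with each library left out was -0.94 to 0.034). Members lower at an adjusted p under 0.05 numbered 1 with DESeq2, 4 with voom and 1 with the GC and length offsets, against 0. At the study's threshold 1 member became 2 with DESeq2, RLE scaling, at least 10 counts in every library, values divided by 4 and the GC and length offsets, 5 with voom, and 0 to 3 with each library left out. Members below every control library, 3 in all, numbered 3 to 5 with each library left out.

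For all genes, adjusted calls (200 higher, 28 lower) became 1543 and 415 with DESeq2, 1886 and 1311 with voom, 345 and 47 with at least 10 counts in every library, 327 and 46 with values divided by 4, 735 and 303 with the GC and length offsets, and 0 to 276 and 0 to 36 with each library left out. Genes lower at the study's threshold (227) numbered 498 with voom and 140 to 305 with each library left out. The cause of these shifts was not tested.

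Same-numbered libraries did not deviate together (correlations -0.20, -0.092 and 0.063), so the replicate block was not used. With the replicate block, 34 genes were higher and 1 lower at an adjusted p under 0.05, 1 member stayed at the study's threshold, and Hbb-bs had a log2 fold change of -1.29. The 5 genes most like the globins were all shared with a prior count of 0.5. Gata1 and Slc4a1 did not pass the filter on low counts, and 31 to 83 counts stand behind Alas2, fewer read pairs where 1 pair counts as 4.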

Other observations

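Rhd, a Rhesus protein of the red cell membrane, was listed at 15.3, 11.7 and 8.99 CPM in control replicates 1 to 3 and at 7.98, 7.76 and 9.34 CPM in luteolin replicates 1 to 3, although its partner Rhag had 0 counts in all libraries. Icam4, another red cell surface gene, had 2.23, 2.46 and 1.67 CPM in the controls and 0.392, 1.32 and 1.03 CPM in luteolin replicates 1 to 3, a log2 fold change of -1.21 (edgeR adjusted p = 0.282). Tfrc, the transferrin receptor, had 175, 357 and 719 CPM in control replicates 1 to 3 and 148, 51.8 and 237 CPM in luteolin replicates 1 to 3 (log2 fold change -1.52, edgeR adjusted p = 0.256). Zbtb7a, a repressor of fetal globin in human red cells, had 15.6 CPM in control replicate 3 and 89.1 to 114 CPM in the other 5 libraries. These 4 genes were picked with their values in view.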
